A study of Arabidopsis thaliana with 16 samples.

Results

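The regions described here are stretches of the Arabidopsis thaliana genome that carried trimethylation of histone H3 lysine 27 (H3K27me3) in wild-type seedlings and in which no comparable peak was listed for seedlings of the mutant ubp5. They were chosen by a rule on the measured peaks. Base pairs under a peak with a score over 30 in both Col-0 lists were joined into contiguous regions, and a region was kept when it overlapped no peak with a score over 30 in either ubp5 list. The score is 10 times the −log10 q-value of a peak, so that a score over 30 stands for a −log10 q-value above 3. Of 4933 Col-0 regions, 472 met the rule, which is 9.57% of them, and the other 4461 are called shared. The number depended on the lists, with 1022 regions without Col-0 replicate 1 and 228 when all lists were reduced to equal cover. Because the H3K27me3 peaks chose the regions, their H3K27me3 values are given as a description without a test.

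The tested seedlings carried ubp5, a deletion made with CRISPR/Cas9 and a pair of guide RNAs in the gene of the ubiquitin-specific protease UBP5, in the Columbia-0 background. A single deletion line was profiled, so the line and the mutation cannot be told apart. The wild type was Col-0, and both genotypes were sampled as whole seedlings at 12 days after germination. H3K27me3 was profiled by ChIP-seq in 2 ubp5 and 2 Col-0 libraries, and monoubiquitinated histone H2A (H2Aub) in 3 ubp5 and 3 Col-0 libraries, which the study describes as biological replicates. In whole seedlings, fewer cells that carry a mark and less of the mark per cell cannot be told apart.

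H3K27me3 is placed by Polycomb repressive complex 2 (PRC2), whose catalytic subunits in Arabidopsis are CLF, SWN and MEA. The mark is known for keeping developmental and tissue-specific genes silent, and in plants it typically extends over the body of single genes rather than over long stretches of chromosome. H2Aub is placed by Polycomb repressive complex 1, with which PRC2 shares many targets, and ubiquitin-specific proteases are the enzymes that can remove ubiquitin from histones. In Arabidopsis, telobox motifs and GA repeats occur in elements that recruit PRC2, and the G-box is a common binding site of bHLH and bZIP transcription factors.

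The H3K27me3 peaks with a score over 30 covered 14.2 and 14.7 Mb in the ubp5 libraries and 14.6 and 16.6 Mb in the Col-0 libraries. H2Aub peaks covered 22.5, 10.9 and 27.8 Mb in the ubp5 libraries, against 11.6, 15.4 and 21.2 Mb in the Col-0 libraries. The H2Aub library of ubp5 replicate 2 stands apart from the other ubp5 libraries with the smallest cover, and results that rest on it are also given without it. The lists hold no read numbers, so the depth behind each peak is unknown from them, and they cannot check the genotype labels. Among the H2Aub libraries, the paper's reporting summary lists the fewest uniquely mapped reads for ubp5 replicate 2. Whether depth set the cover of that library was not tested.

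Sequences of some of the regions are shown first, to tie the values below to the DNA they describe. In the central 500 bp of a region, 53 of the 472 regions, or 11.2%, held a telobox (AAACCCTA, searched on both strands), against 9.46% of the shared regions and 6.25% of all 500-bp windows of the genome. A G-box (CACGTG, which reads the same on both strands) was found in 47 regions, or 9.96%, against 7.87% of the shared regions and 5.35% of all windows. Both motifs were thus more frequent in the windows of Col-0-only regions than in the genome at large. The G-box share was 3.26% in the 460 regions present only in ubp5, which were selected by the same rule with the genotypes exchanged. Their telobox share was 7.39%. A GA repeat (GAGAGAGA, also on both strands) was found in 8.90% of the windows of Col-0-only regions and 7.65% of all windows. In shared regions the GA repeat share was 8.79% and in ubp5-only regions 9.35%. An AC repeat (ACACACAC, on both strands) was found in 2.12% of Col-0-only, 3.68% of shared and 3.04% of ubp5-only regions, and in 2.98% of all windows. No motif contains another. The windows of regions shorter than 500 bp reach beyond them. The median GC content of the windows was 39.1% in Col-0-only regions, 39.4% in ubp5-only regions, 36.0% in shared regions and 36.6% in the genome.

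The stretches below come from the 4 longest Col-0-only regions with a telobox, and then the 4 longest with a G-box, in which the stretch held no untranslated exon. They were read from RefSeq's TAIR10.1 on the plus strand, and the first match in the central window stands in capitals. The coordinates before each name are those of the printed stretch.
chr3:19194276-19194383, in the gene AT3G00890, annotated as misc_RNA: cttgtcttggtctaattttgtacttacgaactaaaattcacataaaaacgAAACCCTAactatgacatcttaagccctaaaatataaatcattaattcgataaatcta
chr4:11734201-11734308, between genes next to AT4G22165: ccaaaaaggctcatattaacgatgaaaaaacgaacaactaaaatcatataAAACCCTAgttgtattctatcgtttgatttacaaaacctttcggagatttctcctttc
chr3:20908358-20908465, between genes next to WRKY70: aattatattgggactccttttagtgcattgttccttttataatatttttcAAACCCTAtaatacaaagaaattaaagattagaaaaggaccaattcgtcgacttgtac
chr3:22594993-22595100, in the coding sequence of CYP76C7: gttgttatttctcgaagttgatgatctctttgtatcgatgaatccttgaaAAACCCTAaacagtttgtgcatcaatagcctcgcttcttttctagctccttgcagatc
chr3:18868183-18868288, in the coding sequence of GATL2: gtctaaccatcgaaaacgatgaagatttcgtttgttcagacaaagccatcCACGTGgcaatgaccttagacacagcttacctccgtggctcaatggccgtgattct
chr4:17783641-17783746, between genes near AT4G37810: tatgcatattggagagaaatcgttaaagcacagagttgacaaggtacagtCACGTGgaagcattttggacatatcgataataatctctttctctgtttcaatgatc
chr3:16001743-16001848, in the coding sequence of AT3G44326: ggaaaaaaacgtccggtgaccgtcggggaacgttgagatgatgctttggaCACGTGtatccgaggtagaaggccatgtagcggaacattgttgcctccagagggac
chr3:20677591-20677696, between genes near AT3G55710: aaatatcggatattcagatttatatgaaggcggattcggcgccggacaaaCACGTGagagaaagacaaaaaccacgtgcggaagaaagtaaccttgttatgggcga

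The regions present only in Col-0 were short. Their median length was 806.5 bp, with quartiles of 483 and 1264 bp and a range of 15 to 4913 bp, whereas shared regions had a median of 2094 bp and reached 57710 bp. In all they summed to 471 kb, or 3.39% of the 13886 kb in Col-0 regions. Only 41 of them, or 8.69%, were longer than 2000 bp, against 51.7% of the shared regions, and 127 were shorter than 500 bp. The regions present only in ubp5 had a median of 840 bp. Thus both sets of genotype-specific regions lay at the short end of the length distribution, and a region of 15 bp is where peaks of the Col-0 lists only just overlapped.

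**Figure D1:**
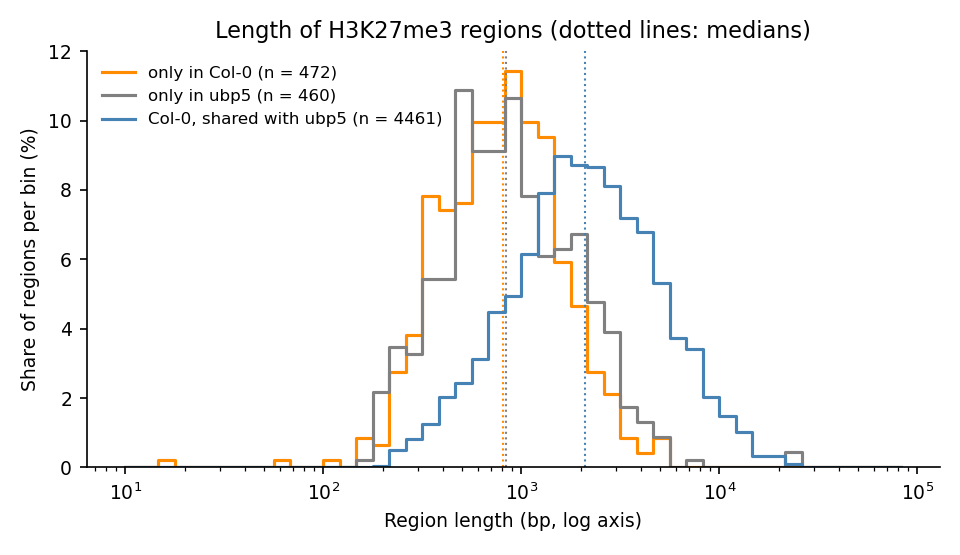
Length of H3K27me3 regions in bp on a log axis, as the share of regions per bin, for the 472 regions present only in Col-0, the 460 present only in ubp5 and the 4461 Col-0 regions shared with ubp5; dotted lines are medians. The medians of 806.5 and 840 bp lie close together, and that of the shared regions lies at 2094 bp.

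They were also weakly enriched in the wild type. The strongest peak over a Col-0-only region had a median score of 45 in Col-0 replicate 1 and 77 in Col-0 replicate 2, against 114 and 222 over shared regions. Its median fold over background was 2.01 and 2.44, against 2.65 and 3.60. The lower of the Col-0 scores had a median of 43 and an upper quartile of 58 in Col-0-only regions, and 113 in shared regions. A few stood higher, with scores up to 359 in replicate 1 and 705 in replicate 2. Col-0-only regions were therefore mostly ones that passed the score limit by a small margin.

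Many of them were not empty in the mutant. The deposited H3K27me3 lists reach down to a −log10 q-value of about 1, and a peak with a score of 30 or less lay over 220 Col-0-only regions in ubp5 replicate 1 and over 290 in ubp5 replicate 2. Such a weak peak was present in both ubp5 lists for 195 regions (41.3%), in 1 list for 120 (25.4%) and in neither for 157 (33.3%). The weak peaks covered 48.1% of the base pairs of Col-0-only regions. Over Col-0-only regions their median score was 21 in each ubp5 library and their median fold 1.66 and 1.78. Most of the regions thus kept a called, though weaker, H3K27me3 peak in at least 1 ubp5 library. Regions with weak peaks in both lists were longer, with a median of 1117 bp, than those with none, with a median of 584 bp.

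The limit divided regions that were alike. Just inside it lay 105 regions whose highest ubp5 score was 26 to 30, with a median length of 1044 bp and a median lower Col-0 score of 44. Just outside it lay 123 shared regions whose highest ubp5 score was 31 to 35, with a median length of 1195 bp and the same median lower Col-0 score of 44. On the Col-0 side, 113 Col-0-only regions had a lower Col-0 score of 31 to 35.

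Col-0-only regions were spread over the genome. Chromosomes 1 to 5 held 113, 77, 94, 84 and 104 of them, which is between 8.47% of the Col-0 regions of chromosome 1 and 11.1% of those of chromosome 4. Most stood alone: 349 had a shared region or a chromosome end on both sides, 88 came as neighbouring pairs, 27 as runs of 3 and 8 as runs of 4, with no shared region between them. Only 9.57% of Col-0 regions met the rule, so most would stand alone in random order too, and clustering was not tested. The nearest ubp5 peak with a score over 30 lay a median of 5.11 kb away, with a range of 0.653 to 84.5 kb, and in 32 regions it lay within 1000 bp. It lay within 2000 bp in 127 regions (26.9%) and within 5000 bp in 232 (49.2%). The limit of 1000 bp is near the shortest distance seen, and the distances were not compared with those of other regions.

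Around the centres of the regions, Col-0 peaks fell off within 1 kb. At 1 kb on either side of the centre, H3K27me3 peaks covered 0.212% to 1.06% of the positions in the ubp5 libraries and 12.7% to 19.5% in the Col-0 libraries. At 3 kb they covered 10.8% to 13.1% in ubp5 and 15.0% to 19.7% in Col-0. H2Aub cover was highest at the centre in the 3 ubp5 libraries and 100 bp to its right in the 3 Col-0 libraries. At the centre the peaks covered 61.2%, 33.7% and 70.3% of the regions in ubp5 and 55.1%, 59.1% and 70.3% in Col-0, and at 3 kb they were down to between 9.53% and 32.6% in ubp5 and between 12.1% and 24.6% in Col-0.

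**Figure D2:**
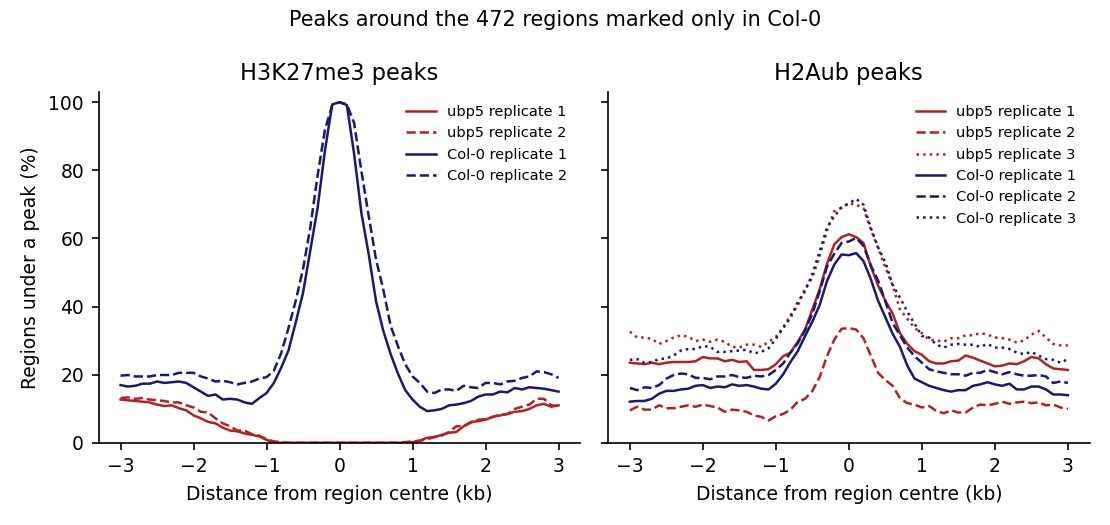
Share of the 472 Col-0-only regions under an H3K27me3 peak (left) or an H2Aub peak (right) in each library, in % against the distance from the region centre in kb, peaks with a score over 30. H3K27me3 was absent at the centre in ubp5 and complete in Col-0, as the rule fixes, while H2Aub cover was highest at or near the centre in the libraries of both genotypes.

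The regions lay mainly in genes. Coding sequence made up 46.9% of their base pairs, against 32.1% in shared regions and 28.3% in the nuclear genome, and 29.1% lay between annotated genes, against 41.8% in shared regions. Introns of protein-coding genes held 12.4% and untranslated exons 6.75%. At least 1 protein-coding gene was overlapped by 372 regions (78.8%), and 72 regions (15.3%) overlapped no annotated gene or pseudogene, against 8.25% of shared regions. Positions within 500 bp of the start of a protein-coding gene made up 26.3% of the base pairs, against 26.4% in shared regions. The larger coding share was therefore not accompanied by a larger share near gene starts. It was not particular to Col-0-only regions, as coding sequence made up 43.6% of the base pairs of ubp5-only regions. Of the base pairs of ubp5-only regions, 14.6% lay between annotated genes, and 5.43% of those regions overlapped no annotated gene or pseudogene.

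In all, 450 genes and pseudogenes had at least 1 bp in a Col-0-only region. Of these, 397 were protein-coding, 18 were long noncoding RNA genes, 15 transcribed pseudogenes and 8 other pseudogenes, and there were 2 microRNA genes, 3 snoRNA genes and 1 tRNA gene. Of the 397 protein-coding genes, 373 had no ubp5 H3K27me3 peak with a score over 30 anywhere in the gene, 130 had none of any score, and 19 also overlapped a shared region. The median share of the gene in Col-0-only regions was 44.5%. At least 50% of the gene lay in them for 174 genes, all of it for 20, and the start of the gene for 89.

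H2Aub was the readout that the rule did not use. Both marks were profiled in seedlings of the same lines and called against input, so their lists need not be independent. H2Aub peaks covered 51.5%, 25.4% and 62.1% of the base pairs of Col-0-only regions in the ubp5 libraries, against 46.5%, 50.1% and 61.6% in the Col-0 libraries. The ranges of the genotypes overlapped, with ubp5 replicate 2 lowest and ubp5 replicate 3 and Col-0 replicate 3 highest. The means were 46.3% ± 18.9 in ubp5 and 52.7% ± 7.89 in Col-0 (SD, n = 3 each). An exact permutation test on the logit scale gave a difference of −0.29, two-sided p = 0.9 and adjusted p = 0.9 over the 4 tests made. Without ubp5 replicate 2 the difference was 0.16, so its direction rested on that library. A change of H2Aub cover in these regions was not detectable with 3 libraries a genotype.

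Relative to shared regions, the H2Aub cover of Col-0-only regions was lower in ubp5 than in Col-0. H2Aub covered 39.4%, 19.3% and 49.95% of shared regions in the ubp5 libraries and 30.1%, 32.3% and 41.6% in the Col-0 libraries. The logit of the share in Col-0-only regions minus that in shared regions was 0.49, 0.35 and 0.49 in the ubp5 libraries and 0.70, 0.74 and 0.81 in the Col-0 libraries, and these did not overlap. The means were 0.45 ± 0.081 in ubp5 and 0.75 ± 0.056 in Col-0 (SD, n = 3 each), a difference of −0.31. The exact permutation test gave a two-sided p = 0.1, the smallest that 3 against 3 libraries allow, and an adjusted p = 0.133, so the design cannot reach a threshold of 0.05. The difference stayed negative under all 20 alternative settings, between −0.50 and −0.16.

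Against the regions present only in ubp5 the contrast was wider. Those were covered by H2Aub over 64.7%, 46.5% and 69.5% of their base pairs in the ubp5 libraries and over 17.5%, 29.7% and 40.9% in the Col-0 libraries. The logit of the share in Col-0-only regions minus that in ubp5-only regions was −0.55, −0.94 and −0.33 in the ubp5 libraries and 1.41, 0.87 and 0.84 in the Col-0 libraries. H2Aub cover was thus greater in Col-0-only than in ubp5-only regions in every Col-0 library and smaller in every ubp5 library. The difference of −1.64 again had the smallest exact permutation p = 0.1 and an adjusted p = 0.133, and it lay between −2.05 and −1.15 under the 20 alternatives.

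Within each library, Col-0-only regions had a higher H2Aub cover than shared regions, in 6 of 6 libraries. The mean logit difference was 0.60, and an exact sign-flip test over the libraries gave p = 0.03125, the smallest it allows, with an adjusted p = 0.125. The regions are the same in all libraries, so this p does not measure the spread among regions. The difference from shared regions went with region length. In the ubp5 libraries H2Aub covered 75.5%, 48.1% and 82.9% of Col-0-only regions shorter than 500 bp and 33.7%, 12.6% and 47.4% of those longer than 2000 bp. In the Col-0 libraries the corresponding shares were 67.7%, 72.2% and 78.6% for the shorter ones and 27.9%, 31.9% and 42.9% for the longer ones. Among regions of 500 to 1500 bp, a limit chosen after the data were seen that kept 268 Col-0-only and 1297 shared regions, the mean logit difference was −0.060 with p = 0.5625 in the exact sign-flip test. There the share was lower than in shared regions in all 3 ubp5 libraries (57.9%, 29.8% and 68.1%, against 64.1%, 37.2% and 73.4%) and higher in all 3 Col-0 libraries (54.7%, 58.5% and 71.2%, against 49.6%, 56.3% and 67.1%). When the lower score was also limited to at most 60, again chosen after the data were seen, which left 206 Col-0-only and 424 shared regions, the share was higher than in shared regions in the ubp5 libraries as well (55.3%, 25.5% and 66.6%, against 51.9%, 24.5% and 62.8%). In the Col-0 libraries it was then 50.7%, 53.7% and 68.5%, against 33.3%, 41.1% and 53.6%. The excess in Col-0 was thus seen in both of these comparisons, and that in ubp5 only with the score limit added.

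**Figure D3:**
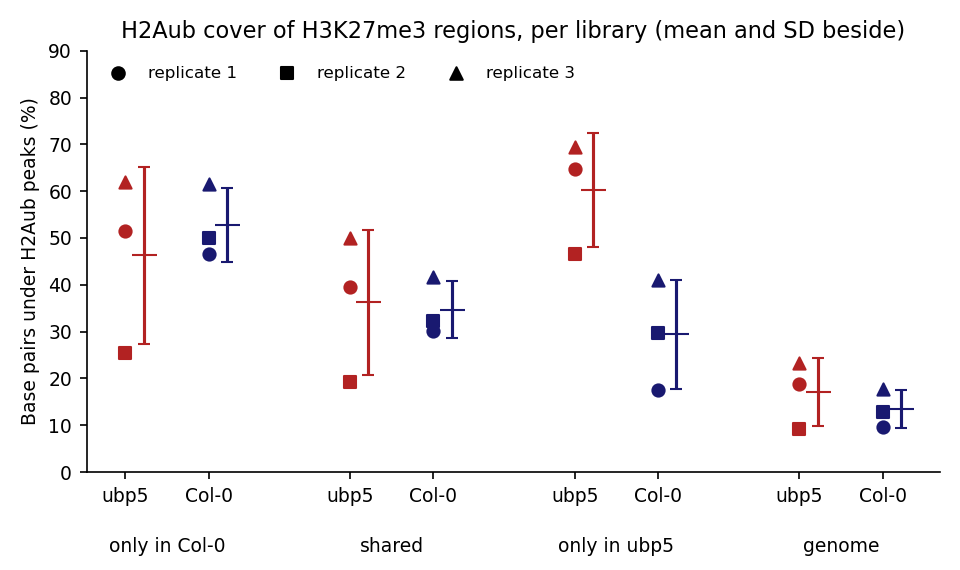
Share of base pairs under H2Aub peaks with a score over 30, in %, for regions present only in Col-0, shared regions, regions present only in ubp5 and the nuclear genome; each point is a library, with the mean and SD beside (n = 3 libraries per genotype). In Col-0-only regions the ubp5 libraries lie at 25.4% to 62.1% and the Col-0 libraries at 46.5% to 61.6%, whereas in ubp5-only regions every ubp5 library lies above every Col-0 library.

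Compared with the genome, Col-0-only regions were rich in H2Aub in both genotypes. Their H2Aub share was 2.72, 2.77 and 2.66 times the share of the nuclear genome under H2Aub peaks in the ubp5 libraries, and 4.80, 3.88 and 3.46 times in the Col-0 libraries. In shared regions the ratios were 2.08, 2.11 and 2.14 in the ubp5 libraries and 3.10, 2.50 and 2.34 in the Col-0 libraries. In both kinds of region the highest ratio of a ubp5 library lay below the lowest of a Col-0 library. When all H2Aub lists were reduced to the cover of the smallest one, and likewise the H3K27me3 lists, 228 regions met the rule. H2Aub then covered 32.1%, 34.3% and 29.2% of them in the ubp5 libraries and 50.8%, 47.0% and 46.7% in the Col-0 libraries, without overlap, with an exact permutation p = 0.1. In this setting shared regions did not overlap between the genotypes either, with 15.7%, 19.7% and 14.2% in the ubp5 libraries and 28.9%, 24.1% and 22.4% in the Col-0 libraries. The lower H2Aub cover in ubp5 at equal cover was therefore not particular to Col-0-only regions. Equal cover fixes the total of each list, so H2Aub peaks at other sites take up cover that these regions could have held. In the same way, a ratio to the genome falls when more of the genome elsewhere is covered. Lower values by either measure are thus no measure of H2Aub lost from the regions.

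Region by region, most Col-0-only regions carried H2Aub in both genotypes, as did most Col-0 regions. At least 2 libraries of each genotype had a peak in 304 regions (64.4%), against 69.4% of all Col-0 regions. At least 1 H2Aub peak overlapped 332, 188 and 390 of the 472 regions in the ubp5 libraries and 298, 332 and 384 in the Col-0 libraries. In 181 regions (38.3%) all 6 libraries had a peak, against 43.0% of all Col-0 regions, and in 58 (12.3%) none had, against 10.2%. In 93 regions all 3 Col-0 libraries and 2 ubp5 libraries had one, and in each of these 93 it was ubp5 replicate 2 that lacked it. An H2Aub peak in 3 Col-0 libraries and in no ubp5 library was found in 2 regions, against 0.162% of all Col-0 regions, and the reverse in 0 regions, against 0.0811%. Regions without H2Aub in every ubp5 library and with it in every Col-0 library were therefore rare.

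**Figure D4:**
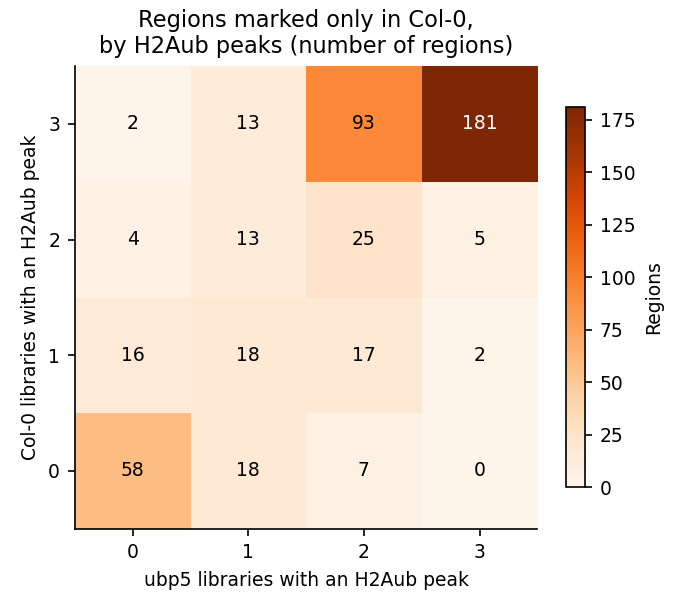
Number of the 472 Col-0-only regions by how many ubp5 libraries (horizontal) and how many Col-0 libraries (vertical) had an H2Aub peak over at least 1 bp. The largest groups are the 181 regions with a peak in all 6 libraries, the 93 with a peak in 3 Col-0 and 2 ubp5 libraries and the 58 with none.

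By covered length, H2Aub was narrower in all ubp5 libraries than in any of Col-0 in 32 of the 472 regions (6.78%), against 3.12% of all 4933 Col-0 regions. It was wider in every ubp5 library in 4 regions (0.847%), against 2.27% of all Col-0 regions. The second count depended on ubp5 replicate 2: without it, 41 regions (8.69%) were wider in ubp5, against 22.2% of all Col-0 regions, and 32 were narrower, against 3.37%. A region that H2Aub covered from end to end in a Col-0 library could not be wider in ubp5. Col-0-only regions were shorter than shared ones and had the higher H2Aub cover in Col-0. The shares of wider regions therefore do not compare regions with the same room for a gain. A region could be narrower only where every Col-0 library had H2Aub. In the Col-0 libraries, 63.1%, 70.3% and 81.4% of Col-0-only regions had a peak, against 63.3%, 72.1% and 82.6% of shared ones. Narrower regions were not compared at equal H2Aub cover either. Without ubp5 replicate 3 the narrower ones numbered 56, against 10.99% of all Col-0 regions, and without Col-0 replicate 1 they numbered 52, against 6.75%. Leaving out Col-0 replicate 2 gave 6 wider regions (1.27%), against 2.68% of all Col-0 regions, and leaving out Col-0 replicate 3 gave 10 (2.12%), against 5.59%. H2Aub in ubp5 alone was found in 2 regions (0.424%) without Col-0 replicate 3, against 0.669%. It was found in 7 (1.48%) without ubp5 replicate 2, against 2.17%. H2Aub in Col-0 alone was found in 15 regions (3.18%) without ubp5 replicate 3, against 1.44%. It was found in 6 (1.27%) without Col-0 replicate 1, against 0.547%.

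H2Aub also varied among the Col-0-only regions themselves. In the 157 regions with no ubp5 H3K27me3 peak of any score, H2Aub covered 57.4%, 30.2% and 63.4% in the ubp5 libraries and 57.4%, 60.2% and 69.5% in the Col-0 libraries. In the 195 regions with a weak peak in both ubp5 lists it covered 46.9%, 19.99% and 59.2% in ubp5 and 38.2%, 41.9% and 56.1% in Col-0, and these regions were the longer ones. The 72 regions over no annotated gene had the lowest cover, 27.8%, 8.51% and 40.5% in ubp5 and 14.8%, 19.3% and 29.4% in Col-0. The 400 regions over a gene or pseudogene had 55.7%, 28.3% and 65.9% in ubp5 and 52.1%, 55.5% and 67.3% in Col-0.

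Counted by gene, with a gene called H2Aub marked when at least 2 libraries of a genotype had a peak in it, 292 of the 397 protein-coding genes under Col-0-only regions (73.6%) were marked in both genotypes. Among all protein-coding genes that share was 43.9%. Only 16 (4.03%) were marked in ubp5 and not in Col-0, against 25.1% of all 27444 protein-coding genes. A further 26 (6.55%) were marked in Col-0 and not in ubp5, against 2.87% of all protein-coding genes, and 63 (15.9%) in neither. Without ubp5 replicate 2, and with both remaining ubp5 libraries required, the counts were again 16 and 26, against 24.9% and 2.94% of all protein-coding genes. Among the 5284 genes under shared regions the shares were 7.93% for ubp5 alone and 3.82% for Col-0 alone. Few genes under Col-0-only regions thus belonged to the large class that carried H2Aub in ubp5 alone. A gene marked in Col-0 cannot enter that class, and more of these genes than of all protein-coding genes were marked in Col-0. The shares therefore do not compare genes with the same room for a gain. In turn, only a gene marked in Col-0 can be marked in Col-0 and not in ubp5. The shares for Col-0 alone thus do not compare genes with the same room for a loss.

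The genes with most base pairs in Col-0-only regions, among those with at least 50% of their length there, encode mainly enzymes. PRXCB (AT3G49120, chr3:18207651-18210333), a secreted class III peroxidase with a role in the defence-related oxidative burst, had 0 and 0 bp under H3K27me3 peaks with a score over 30 in the ubp5 libraries, against 2591 and 2656 bp of its 2683 bp in the Col-0 libraries. Weaker ubp5 peaks covered 821 bp of PRXCB. H2Aub peaks over PRXCB covered 1137, 408 and 2615 bp in ubp5 and 1310, 2550 and 2591 bp in Col-0, so the genotypes overlapped. CHX17 (AT4G23700, chr4:12342376-12346051), a cation/H+ exchanger, had no ubp5 H3K27me3 peak of any score, against 3038 and 2799 bp in Col-0 at a score over 30. Its H2Aub cover was 3571, 0 and 3638 bp in ubp5 and 3128, 3443 and 3608 bp in Col-0. H2Aub over CHX17 was thus as broad in ubp5 as in Col-0 apart from ubp5 replicate 2.

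The same picture was seen in both NAD(P)-binding Rossmann-fold proteins of this list. AT2G37540 (chr2:15751568-15754061) was covered by H2Aub over its whole 2494 bp in every library except ubp5 replicate 2, which had 0 bp, and it had 2143 and 2265 bp under H3K27me3 peaks in Col-0. AT5G53100 (chr5:21526250-21528323) had 1852, 0 and 2074 bp under H2Aub in ubp5 and 2071, 1277 and 2035 bp in Col-0. In both, weak H3K27me3 peaks in the ubp5 lists covered part of the gene, over 2082 bp of AT2G37540 and 1297 bp of AT5G53100.

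The pectin methylesterase gene ATPMEPCRB (AT4G02330, chr4:1032350-1035055) had H2Aub over a similar length in all libraries, with 2138, 2143 and 2183 bp in ubp5 and 2115, 2248 and 2264 bp in Col-0. Pectin methylesterases modify cell wall pectin. PUM10 (AT1G35750, chr1:13253398-13255570), a member of the pumilio family of RNA-binding proteins, had 1909, 645 and 1975 bp in ubp5 and 2035, 1970 and 1997 bp in Col-0. AT2G25260 (chr2:10755524-10757947), a Hyp O-arabinosyltransferase-like protein, had 2337, 392 and 2051 bp in ubp5 and 2297, 2344 and 2321 bp in Col-0. In the last of these, ubp5 replicates 2 and 3 lay below all Col-0 libraries and ubp5 replicate 1 did not, and in PUM10 all but ubp5 replicate 3 did.

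In the remaining genes of the list H2Aub covered a part of the gene or was seen in some libraries only. AT5G50915 (chr5:20710103-20712473), a bHLH transcription factor, had 738, 427 and 1373 bp under H2Aub in ubp5 and 760, 667 and 653 bp in Col-0. CYP76C7 (AT3G61040, chr3:22593973-22596125), a cytochrome P450, had H2Aub in replicate 3 of each genotype alone, over 1075 bp in ubp5 and 2153 bp in Col-0. H3K27me3 peaks with a score over 30 covered none of CYP76C7 in ubp5, where weaker peaks covered 1986 bp, against 2059 and 2153 bp in the Col-0 libraries.

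AT3G55700 (chr3:20671115-20673430), a UDP-glycosyltransferase, lay wholly within a Col-0-only region. It belongs to a run of 3 such regions, from 20671041 to 20678300 on chromosome 3, that also takes in its tandem neighbour AT3G55710 and the intergenic G-box stretch printed above. UDP-glycosyltransferases attach sugars to hormones and secondary metabolites. AT3G55700 had 604, 494 and 615 bp under H2Aub in ubp5 and 594, 568 and 2316 bp in Col-0, and AT3G55710 had 0, 0 and 0 bp in ubp5 and 0, 0 and 589 bp in Col-0. No ubp5 H3K27me3 peak with a score over 30 lay over the pair, while weaker ubp5 peaks covered 919 bp of AT3G55700 and 410 bp of AT3G55710.

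By family, 10 UDP-glycosyltransferase genes lay under Col-0-only regions, out of 36 with any Col-0 region and 128 annotated. That is 27.8% of the family's marked genes, beside 7.01% of all marked protein-coding genes (397 of 5662). Pumilio genes had 3 of 8 and B3 transcription factor genes 5 of 26. The UDP-glycosyltransferase, pumilio and C1 domain families were added after the gene names had been seen, so their shares describe the list and test nothing. The counts were 1 of 58 for MADS genes, 1 of 45 for NAC genes, 12 of 329 for F-box genes and 0 of 17 for expansins. Cytochrome P450 genes, with 6 of 102 (5.88%), lay close to the share of all marked genes. So did class III peroxidase genes, with 3 of 44 (6.82%), and immune receptor genes of the NLR family, with 2 of 32 (6.25%). WRKY genes had 3 of 38 (7.89%) and MYB genes 3 of 70 (4.29%). None of the 13 marked transposon-related genes lay under a Col-0-only region.

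**Figure D5:**
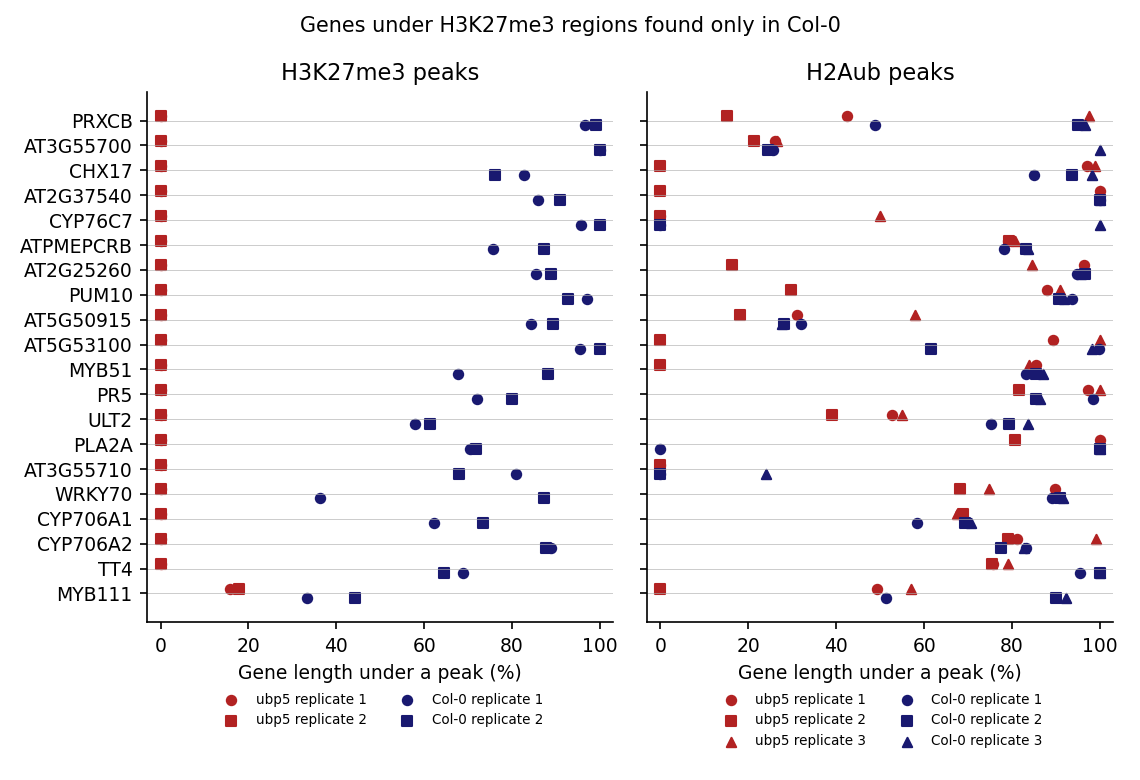
Share of gene length under H3K27me3 peaks (left) and H2Aub peaks (right) with a score over 30, in %, for the 10 genes with most base pairs in Col-0-only regions and 10 further genes named in the text; points are libraries, with ubp5 above Col-0 on each line. H3K27me3 was at 0 in both ubp5 libraries for all but MYB111, and H2Aub points of the genotypes overlap for most genes.

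Among classical Polycomb genes, 1 gene reported here overlapped a Col-0-only region. Of 109 matched genes in lists of Polycomb subunits, floral MADS genes, flowering regulators, KNOX and WOX homeobox genes, seed regulators, storage proteins, and auxin and ethylene genes, 76 overlapped a Col-0 H3K27me3 region, and of these LEC1 overlapped one present only in Col-0, beside 7.01% of all marked protein-coding genes. Of the Polycomb subunit genes in these lists, 2 of PRC2 and 1 of PRC1 and its readers had any Col-0 region. All 13 floral MADS genes had a Col-0 region and none a Col-0-only one. LEC1 (AT1G21970), a master regulator of embryo development, had 96 bp in a Col-0-only region and 635 bp in a shared one, and its H3K27me3 cover was 571 and 590 bp in ubp5 and 732 and 772 bp in Col-0. The gene thus kept a marked part in ubp5 and was covered over a shorter length than in either Col-0 library. H2Aub peaks covered 609, 576 and 662 bp of LEC1 in ubp5 and 647, 680 and 701 bp in Col-0, with overlap.

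Several genes of defence and flavonoid metabolism were singled out after their values had been seen. TT4 (AT5G13930, chr5:4488476-4490264), the chalcone synthase that begins flavonoid synthesis, had no ubp5 H3K27me3 peak of any score, against 1232 and 1153 bp in Col-0 at a score over 30. H2Aub covered 1352, 1348 and 1413 bp of TT4 in ubp5 and 1707, 1789 and 1789 bp in Col-0, so that it was narrower in every ubp5 library. MYB111 (AT5G49330), a regulator of flavonol synthesis, kept part of its mark, with 435 and 494 bp in ubp5 and 916 and 1215 bp in Col-0. H2Aub covered 1356, 0 and 1565 bp of MYB111 in ubp5 and 1413, 2472 and 2540 bp in Col-0, with overlap.

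WRKY70 (AT3G56400, chr3:20908711-20910623), a transcription factor of salicylic acid responses, had 0 and 0 bp under H3K27me3 peaks in ubp5 and 695 and 1668 bp in Col-0. Its H2Aub cover was 1717, 1306 and 1428 bp in ubp5 and 1704, 1740 and 1751 bp in Col-0, with overlap. PR5 (AT1G75040), a marker of the same pathway, had no H3K27me3 at a score over 30 in ubp5, where weaker peaks covered 347 bp, against 973 and 1081 bp in Col-0. H2Aub over PR5 covered 1317, 1103 and 1353 bp in ubp5 and 1331, 1157 and 1169 bp in Col-0. MYB51 (AT1G18570), a regulator of indole glucosinolate synthesis, had none at a score over 30 in ubp5, with 757 bp under weaker peaks, against 1345 and 1755 bp in Col-0. H2Aub over PR5 and MYB51 overlapped between the genotypes, and MYB51 had 1698, 0 and 1666 bp in ubp5 and 1653, 1701 and 1730 bp in Col-0.

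ULT2 (AT2G20825, chr2:8965556-8967243), whose paralogue ULT1 acts as an antagonist of Polycomb repression, had no H3K27me3 at a score over 30 in ubp5, with 538 bp under weaker peaks, against 978 and 1035 bp in Col-0. H2Aub over ULT2 covered 889, 660 and 927 bp in ubp5 and 1271, 1340 and 1413 bp in Col-0, again narrower in every ubp5 library. The phospholipase gene PLA2A (AT2G26560) had none at a score over 30 in ubp5, although weaker peaks covered 1365 bp, against 1562 and 1594 bp in Col-0. In PLA2A, H2Aub covered 2217, 1789 and 2217 bp in ubp5 and 0, 2217 and 2217 bp in Col-0. The tandem P450 genes CYP706A1 and CYP706A2 had no ubp5 H3K27me3 peak with a score over 30, against 1486 and 1754 bp for CYP706A1 and 1648 and 1626 bp for CYP706A2 in Col-0. Weaker ubp5 peaks covered 888 bp of CYP706A1 and 1254 bp of CYP706A2. Their H2Aub cover was 1631, 1647 and 1616 bp and 1506, 1466 and 1840 bp in ubp5, against 1396, 1659 and 1690 bp and 1542, 1436 and 1536 bp in Col-0.

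The 10 longest regions measured 3417 to 4913 bp, and all 10 overlapped a weak ubp5 peak. The longest, chr3:4370751-4375663, spanned 5 annotated genes, of which AT3G13432, an uncharacterized protein, had the longest overlap. Its strongest peak had a score of 0 and 25 in ubp5, against 49 and 105 in Col-0, and H2Aub lay over it in ubp5 replicate 3 alone, across 3279 bp. The next, chr1:12340564-12345396, lay between genes 154 bp from AT1G33950, a gene of the AIG1 family of avirulence-induced proteins, with scores of 23 and 21 in ubp5 and 37 and 97 in Col-0. A region of 4825 bp at chr2:15495025-15499849 lay 1876 bp from ABCB1, an auxin transporter of the ABC family, with scores of 19 and 23 in ubp5 and 54 and 60 in Col-0. Scores in these long regions thus fell below the limit in ubp5 without a list being empty in both libraries.

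Further long regions lay over AT5G22580, annotated as a stress responsive barrel domain protein, at chr5:7499980-7504669, over AT5G50915 at chr5:20707533-20712100, over HMA2, a heavy metal transporter, at chr4:14724380-14728626 and over AT3G50290, an acyltransferase, at chr3:18639885-18643454. Their ubp5 scores were between 23 and 29 and their Col-0 scores between 32 and 74. The region at chr2:14243264-14246739, over MLO5 of the seven-transmembrane MLO family, had scores of 13 and 22 in ubp5 and 83 and 145 in Col-0. H2Aub covered 0, 0 and 2678 bp of the MLO5 region in ubp5 and 0, 1435 and 2765 bp in Col-0. The remaining regions of the 10 lay between genes, at chr2:7717066-7720557 near AT2G17760, without H2Aub in any library, and at chr2:9869929-9873345 near CYP96A1, with 80 bp of H2Aub in Col-0 replicate 3 only.

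A clearer absence was seen in 140 regions that lay at least 1000 bp from any deposited ubp5 H3K27me3 peak. The longest of these, chr1:24283078-24286083 over AT1G65370, a TRAF-like protein, had Col-0 scores of 54 and 79 and stood 3457 bp from the nearest ubp5 peak. H2Aub covered none of it in the ubp5 libraries and 0, 0 and 428 bp in Col-0. The next, chr3:19193045-19195702, holds the misc_RNA gene AT3G00890 and the telobox stretch printed first, with Col-0 scores of 51 and 88 and no H2Aub in any library. Another, chr3:3650766-3653112 over the B3 transcription factor gene AT3G11580, lay 33772 bp from any ubp5 peak and had H2Aub over 564, 580 and 587 bp in ubp5 and 600, 575 and 599 bp in Col-0. These regions ranged from no H2Aub at all to a block of the same size in all 6 libraries.

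The other named regions of this kind lay over AT3G62460, a putative endonuclease or glycosyl hydrolase, at chr3:23103760-23105550 and over PUM11 at chr4:5631406-5633075. H2Aub in the AT3G62460 region covered 774, 651 and 725 bp in ubp5 and 1693, 1189 and 1093 bp in Col-0, narrower in every ubp5 library. In the PUM11 region it covered 629, 296 and 361 bp in ubp5 and 491, 494 and 638 bp in Col-0, with overlap.

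The 2 regions with H2Aub in all 3 Col-0 libraries and in no ubp5 library were over AT4G19520 and AT5G62730. At AT5G62730, a transporter of the major facilitator superfamily (chr5:25198839-25199998), H2Aub covered none of the 1160-bp region in ubp5, against 1109, 1144 and 1144 bp in Col-0. The H3K27me3 scores of that region were 27 and 0 in ubp5 and 33 and 65 in Col-0. At AT4G19520, an immune receptor of the TIR-NBS-LRR class (chr4:10641124-10644153), H2Aub covered only 418, 164 and 69 bp of 3030 bp in Col-0. H3K27me3 scores there were 29 and 23 in ubp5 and 44 and 40 in Col-0. AT5G62730 was thus the region in which H2Aub went with the loss of the H3K27me3 call over nearly its whole length.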

How the data were processed

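ChIP-seq broad peak lists of 10 libraries were used. The 6 inputs are not analysed here. Per the study's methods and the submitters' processing notes, the authors mapped reads to TAIR10 with STAR 2.7.8a, removed duplicates with Picard and called broad peaks in each library with MACS3 3.0.0 against input. The deposited score is 10 times the −log10 q-value without its decimals, and the authors also deposited a fold (ratio over background) and −log10 p and −log10 q-values per peak. The H2Aub lists hold no peak under a −log10 q-value of 3, and the H3K27me3 lists reach about 1. Values depend on depth, which is not in the lists, so covered length describes what was called and not how much signal was present. Peaks ended within the chromosomes of RefSeq's TAIR10.1, whose genes were used.

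Overlap was at least 1 bp. Shares of base pairs under H2Aub peaks were compared on the logit scale by exact permutation of 3 against 3 libraries, or exact sign flips over 6 libraries, two-sided, with Benjamini-Hochberg adjustment over 4 tests. Interval functions and tests were tested on simulated data. Named regions were the 10 longest, the 5 longest at least 1000 bp from any deposited ubp5 H3K27me3 peak, and the 5 longest with H2Aub in 3 libraries of one genotype only (2 existed in one direction, 0 in the other). Named genes were the 10 with most base pairs in the regions among protein-coding genes with at least 50% of their length there, and genes of fixed lists that overlap a region. A gene of these lists is not reported here and is left out of their counts. The members and lists were chosen with earlier results of these data known. The alternatives tried were a score over 60, every deposited peak, lists reduced to equal cover, length and distance limits, a laxer removal rule, leaving out each library, a replicate block, and, chosen after seeing the data, limits on length and score. Python 3.11.15, NumPy 2.4.6 and pandas were used.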

Additional observations from a re-analysis of the deposited data

How the results depend on the processing

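The number of Col-0-only regions, 472 here, was 228 with lists reduced to equal cover, 788 when a region was removed only by base pairs under peaks of both ubp5 lists, and 268 or 206 when limited to 500 to 1500 bp without or with a lower score of at most 60. Leaving out each H3K27me3 library in turn gave 495 to 1022 regions, the latter without Col-0 replicate 1. Their median length, 806.5 bp, was 432 bp with all deposited peaks and 1302.5 bp with a score over 60, and 807 to 849 bp without 1 library. Of the H2Aub comparisons, the difference between ubp5 and Col-0 in Col-0-only regions turned to 0.16 without ubp5 replicate 2, in a range of −0.62 to 0.16 over the left-out H2Aub libraries, and the difference from shared regions within libraries turned to −0.060 at 500 to 1500 bp; the cause was not tested, and it was 0.37 when the score limit was added. No H2Aub result passed an adjusted p of 0.05 in any setting, nor could it have with this many libraries. The replicate numbers did not pair the libraries (correlations of same-numbered deviations −0.12, 0.069 and 0.37), and with the replicate block the differences were −0.29, −0.31 and −1.64 as before, with exact p = 1.0, 0.25 and 0.25, where 0.25 is the smallest possible. All other settings kept the direction of each result.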
